A study of Mus musculus with 12 samples.

Results

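Integrin subunits that bind collagen, laminin or fibronectin were followed in mouse skin in which fibrosis was induced with bleomycin, in the presence or absence of Thy-1. The group holds 10 genes, taken by symbol from the 55453 genes of the count table: Itga1, Itga2, Itga10 and Itga11 (collagen receptors), Itga3, Itga6 and Itgb4 (laminin receptors), Itga5 and Itga8 (fibronectin and related ligands) and Itgb1, the shared β subunit. RNA-Seq was performed on skin of 12 female C57/BL6 mice, 3 in each of 4 groups. WT and Thy-1–KO mice received either PBS (WT PBS and KO PBS) or bleomycin (WT BLM and KO BLM). The methods give 8 to 12 weeks as the age of the KO mice and name littermates as controls. The knockout is global, not limited to a cell type. Bleomycin, a DNA-damaging drug that scars skin at the site of injection, was given s.c. at 10 mg/kg per day in 2 spots on the back. The methods describe up to 14 days of injections, whereas the series text describes 21 days of treatment, with harvest on day 21.

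Integrins are cell surface receptors built from one α and one β subunit, and they couple the matrix outside the cell to actin or keratin filaments inside. The α subunit largely sets which ligand is bound. In skin, basal keratinocytes sit on the laminin of the basement membrane through α3β1 and through α6β4, the integrin of hemidesmosomes, and dermal fibroblasts hold fibrillar collagen through α11β1 and related receptors and fibronectin through α5β1. Thy-1, a glycolipid-anchored surface protein of fibroblasts and other cells, is itself known to bind integrins. Whole skin was sequenced, so fewer cells of a type and less RNA per cell cannot be told apart in any of the values below.

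All 10 genes had enough counts to be tested, among 18311 genes. The basal keratinocyte genes of skin were present in every mouse, with 7497 to 18875 CPM in sum over a list of 7. Library totals ran from 26473700 to 38890450 counts, and the 10 genes together took at most 0.136% of them. Thy1, counted as a check of the labels, was at 123 ± 23.7 CPM (read counts scaled to a common, TMM-normalized library size; SD, n = 3) in WT PBS and 73.3 ± 25.9 CPM in KO PBS mice. Under bleomycin it was at 332 ± 93.8 CPM in WT and 103 ± 22.4 CPM in KO mice. Each KO group was below the WT group of the same treatment without overlap. Of all genes, 10.3% with PBS and 12.9% under bleomycin were lower in KO mice in this way. By edgeR neither Thy1 difference passed the threshold on adjusted p. The log2 fold change was -0.75 in KO PBS against WT PBS (adjusted p = 0.224) and -1.69 in KO BLM against WT BLM (adjusted p = 0.112). Thy1 reads were still counted in every KO mouse, and a count per gene does not show whether the deleted part was read. The libraries also differed in a list of 22 growing-hair genes (keratins of the hair shaft and inner root sheath, trichohyalin and related genes), which was high in 5 of them. The 3 WT PBS mice had a mean log2 CPM of 9.40 to 9.95 over this list, KO PBS mouse 136 had 9.90 and KO BLM mouse 141 had 8.92, while the remaining 7 reached no more than 6.10. For WT mice, bleomycin and the level of this list cannot be told apart, because the WT PBS mice were all high and the WT BLM mice all low.

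The promoters of Itga5, Itgb1 and Itga3 are shown because in WT mice given bleomycin Itga5 and Itgb1 rose and Itga3 fell (values below). Of the 10 genes, 8 had an entry in the RefSeq promoter table (build GRCm38.p6), and for Itga3, which has 2 annotated starts there, the first is shown. Each line gives the 250 bases before the annotated first base, 5′ to 3′ on the strand of the gene, from chr15:103366792-103367041 (minus strand), chr8:128685404-128685653 (plus strand) and chr11:95076715-95076964 (minus strand). Capitals mark matches to the GC box (GGGCGG), the TEAD motif (GGAATG) and the SMAD motif (CAGACA), searched on both strands.
Itga5: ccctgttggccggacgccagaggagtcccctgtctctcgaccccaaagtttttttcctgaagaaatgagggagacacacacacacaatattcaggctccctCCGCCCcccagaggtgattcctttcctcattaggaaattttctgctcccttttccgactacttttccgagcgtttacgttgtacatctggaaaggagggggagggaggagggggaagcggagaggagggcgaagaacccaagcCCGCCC
Itgb1: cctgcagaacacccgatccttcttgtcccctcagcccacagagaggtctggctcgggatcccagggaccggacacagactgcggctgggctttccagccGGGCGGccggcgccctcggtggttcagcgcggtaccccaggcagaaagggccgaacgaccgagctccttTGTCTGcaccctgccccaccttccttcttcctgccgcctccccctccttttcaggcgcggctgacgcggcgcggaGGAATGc
Itga3: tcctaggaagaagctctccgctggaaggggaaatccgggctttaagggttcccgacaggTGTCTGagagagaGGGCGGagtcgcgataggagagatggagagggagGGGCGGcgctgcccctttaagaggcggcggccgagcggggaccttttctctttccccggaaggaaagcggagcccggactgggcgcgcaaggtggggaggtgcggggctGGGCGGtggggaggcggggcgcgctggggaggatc
The Itga5 sequence held 2 GC boxes, the second of them beginning 6 bases before the start, and none of the other motifs. The Itgb1 sequence held 1 match to each of the 3 motifs. Upstream of Itga3 there were 3 GC boxes and 1 SMAD match. In the full windows of 300 bases, no match to the AP-1 motif (TGANTCA), the CCAAT box (CCAAT) or the TATA box (TATAAA) was found in these 3 promoters, and none of these matches overlapped another. Among all 32851 promoter windows of this length, 35.7% held a GC box, 14.7% the TEAD motif, 21% the SMAD motif, 7.81% the AP-1 motif, 37.4% the CCAAT box and 13.6% the TATA box. GC content was 55.6% in the Itga5, 68% in the Itgb1 and 67.6% in the Itga3 sequence.

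To compare levels between the genes, CPM was divided by the length of the merged exons in kb. Per length, Itgb1 was the most abundant of the 10 in every group, at 58.0 ± 7.45 CPM/kb in WT PBS skin. Itgb4 followed with 23.5 ± 0.917 and Itga3 with 23.0 ± 1.06 CPM/kb, which overlapped, and then Itga6 with 16.9 ± 1.90. Itga5 was next at 6.08 ± 0.233 CPM/kb. The collagen receptors and Itga8 lay lower, with Itga11 at 3.63 ± 0.674, Itga1 at 1.75 ± 0.201, Itga2 at 1.74 ± 0.273, Itga8 at 1.098 ± 0.203 and Itga10 at 0.769 ± 0.300 CPM/kb. Itga1 and Itga2 overlapped, as did Itga8 and Itga10, and the other neighbors in this order did not. The place of Itga6 depends on the length used, since its level was 35.5 ± 3.98 CPM/kb, second after Itgb1, when the longest coding transcript was taken in place of all exons. In WT BLM skin Itga5 was at 31.7 ± 3.78 CPM/kb and overlapped Itgb4 above it and Itga6 below it. In KO BLM skin it had 16.4 ± 5.03 CPM/kb and overlapped its neighbors Itga6, at 20.7 ± 1.16, and Itga3, at 16.0 ± 1.49. By the longest coding transcript Itga6 was above Itga5 in both groups. It was at 52.5 ± 10.4 against 35.7 ± 4.26 CPM/kb in WT BLM and at 43.3 ± 2.43 against 18.5 ± 5.67 CPM/kb in KO BLM skin.

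**Figure D1:**
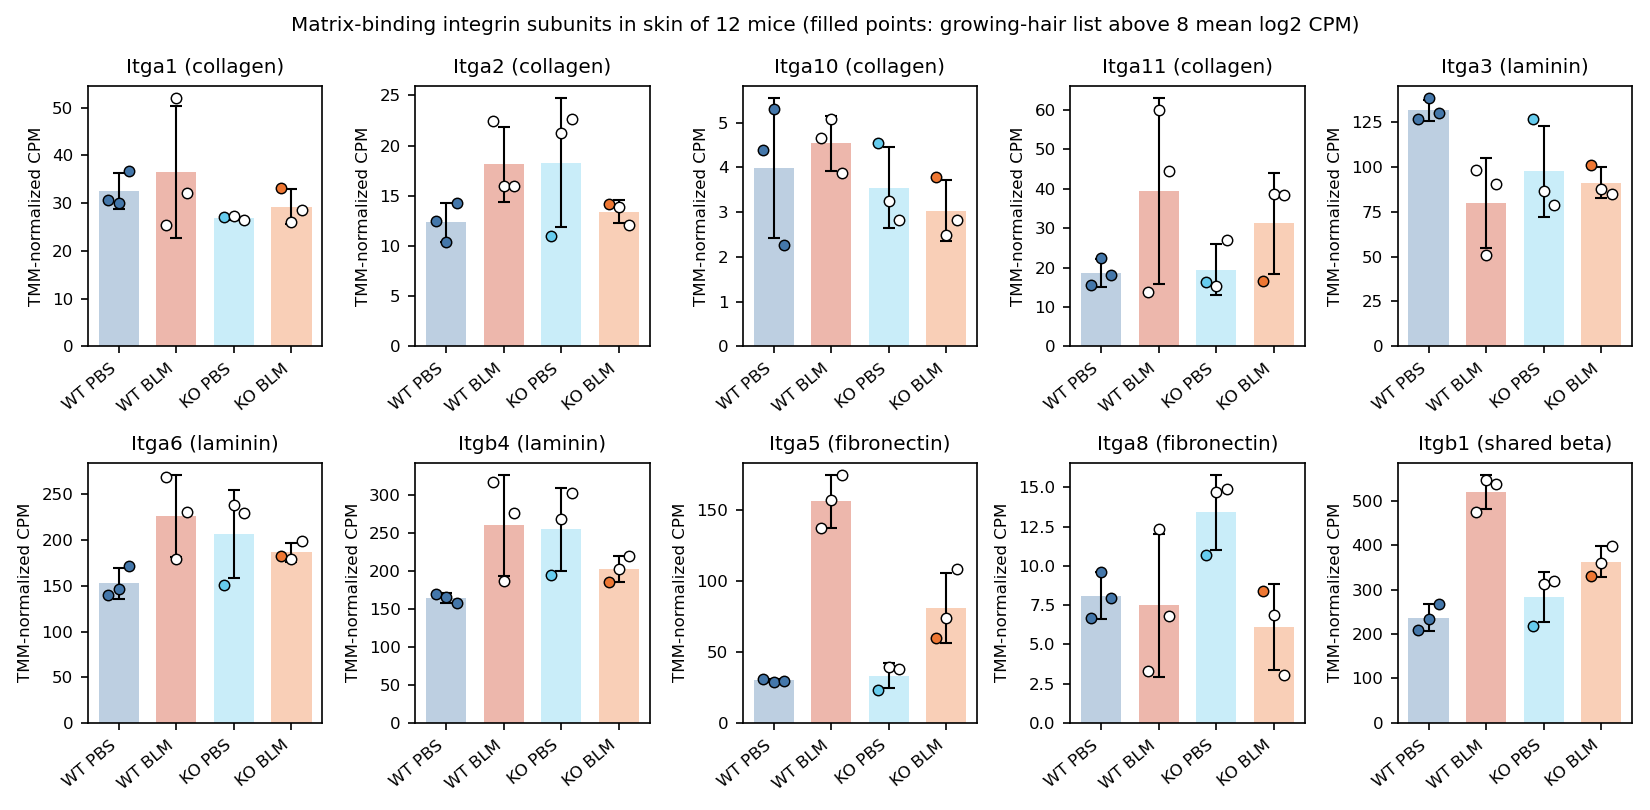
Expression of the 10 integrin subunits (TMM-normalized CPM, linear axes from 0) in the 4 groups, with bars for group means, error bars for SD and 1 point per mouse; filled points are the 5 mice with a growing-hair list above 8 mean log2 CPM and open points the other 7. Itga5 lies between 137 and 175 CPM in WT BLM and between 29.2 and 31.3 CPM in WT PBS mice.

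The fibronectin receptor subunit Itga5 and its partner Itgb1 were the 2 members with the largest called rises in WT mice given bleomycin. Itga5 rose 5.22-fold, Itgb1 rose 2.19-fold, the hemidesmosome pair Itgb4 and Itga6 rose by smaller amounts, and Itga3, the α subunit of the other laminin receptor of the epidermis, fell. Of the 10 members, 5 passed the threshold in WT BLM against WT PBS, 4 higher and 1 lower, where 34% of all genes tested did (19.8% higher and 14.1% lower). The median log2 fold change of the 10 members was 0.56 and that of all genes 0.02. WT PBS and WT BLM values did not overlap for 6 members, against 57% of all genes. Of these, 5 were higher and 1 was lower in WT BLM mice, against 28.3% and 28.7% of all genes, and 5 members had an unadjusted p under 0.05, against 47.4%. The share of members that passed was thus near or somewhat above the background. With the growing-hair list as a covariate 0 members and 0.071% of all genes passed, and without a filter on low counts 3 members and 15.5% of all genes. Without mouse 144 there were 3 members, and 2 without any 1 of mice 143, 147, 159, 160 and 161, in fits that called 13.9% to 29.7% of all genes. There were 6 members without mouse 136 and without both KO mice with a high growing-hair list, in fits that called 45.7% and 49% of all genes.

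Itga5 (chromosome 15, 103344286 to 103366763, minus strand, GRCm38) encodes the α subunit that pairs with β1 to bind fibronectin. Its level was 31.3, 29.2 and 29.4 CPM in WT PBS mice 159, 160 and 161, and 137, 157 and 175 CPM in WT BLM mice 145, 146 and 147. Every WT BLM mouse was thus more than 100 CPM above every WT PBS mouse. The log2 fold change was 2.38 (SE 0.249, 95% confidence interval 1.83 to 2.93, adjusted p = 0.00215). Itgb1 (chromosome 8, 128685654 to 128733200, plus strand) was at 208, 233 and 268 CPM in WT PBS and at 475, 546 and 537 CPM in WT BLM mice. These ranges were far apart as well, and the log2 fold change was 1.13 (SE 0.176, 95% confidence interval 0.74 to 1.52, adjusted p = 0.00439). Both genes kept their side of the threshold in every alternative tried except that with the growing-hair list as a covariate, in which Itga5 had a log2 fold change of 1.74 (adjusted p = 0.0700) and Itgb1 one of 0.77 (adjusted p = 0.252).

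Itga8 (chromosome 2, 12106632 to 12301922, minus strand), whose product pairs with β1 and binds nephronectin and fibronectin, showed no such difference. It was at 6.66, 9.64 and 7.97 CPM in WT PBS and at 3.33, 12.3 and 6.79 CPM in WT BLM mice. The WT BLM values lay on both sides of the WT PBS values, with a log2 fold change of -0.11 (95% confidence interval -1.11 to 0.89, adjusted p = 0.864). The ratio of Itga5 to Itga8 counts within a library, from the mean log2 ratio, was 3.75 in WT PBS and 23.8 in WT BLM mice. In KO mice it was 2.45 with PBS and 14.1 with bleomycin. In both genotypes the bleomycin groups lay above the PBS groups without overlap (exact two-sided permutation p = 0.1 each, adjusted p = 0.4 over 20 ratio comparisons), and with 3 mice against 3 no smaller p is possible than 0.1.

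Among the laminin receptor subunits, the 2 partners of the hemidesmosome integrin moved together and Itga3 moved against them. Itgb4 (chromosome 11, 115974709 to 116008412, plus strand), which pairs with α6 and links laminin-332 to keratin filaments, was at 170, 166 and 158 CPM in WT PBS and at 318, 188 and 276 CPM in WT BLM mice. Itga6 (chromosome 2, 71745616 to 71858416, plus strand) was at 140, 146 and 172 CPM in WT PBS and at 269, 179 and 231 CPM in WT BLM mice. For both genes mouse 145 was highest and mouse 146 lay just above the WT PBS range. The log2 fold change was 0.66 for Itgb4 (SE 0.207, adjusted p = 0.0347) and 0.57 for Itga6 (SE 0.197, adjusted p = 0.0477). The ratio of Itga6 to Itgb4 stayed between 0.806 and 0.923 in the means of the 4 groups, with overlapping ranges in all 4 comparisons.

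Itga3 (chromosome 11, 95044474 to 95076801, minus strand), whose product pairs with β1 and binds laminins of the epidermal basement membrane, was at 126, 138 and 129.6 CPM in WT PBS and at 98.1, 51.1 and 90.3 CPM in WT BLM mice. All 3 WT BLM mice were below the WT PBS mice, and the log2 fold change was -0.72 (SE 0.239, adjusted p = 0.0421). The ratio of Itga3 to Itga6 was 0.862 in WT PBS and 0.344 in WT BLM mice, apart without overlap (exact two-sided permutation p = 0.1, adjusted p = 0.4). The calls of Itgb4, Itga6 and Itga3 sat close to the threshold. When any 1 of the 12 mice was left out, their adjusted p ranged from 0.0129 to 0.112 for Itgb4, from 0.0131 to 0.174 for Itga6 and from 0.0168 to 0.0949 for Itga3.

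None of the 4 collagen receptor subunits passed the threshold in WT mice. Itga11 (chromosome 9, 62677826 to 62783982, plus strand), a receptor subunit for fibrillar collagens on fibroblasts that lies on the same chromosome as Thy1, was at 15.5, 22.3 and 18.1 CPM in WT PBS and at 13.8, 60.03 and 44.5 CPM in WT BLM mice. WT BLM mouse 145 had the lowest of these 6 values while the other 2 mice had the highest. The log2 fold change was 1.08 (SE 0.489, adjusted p = 0.106), and without mouse 145 it was 1.49 (adjusted p = 0.0263) and without mouse 146 0.65 (adjusted p = 0.350). The same mouse had the lowest mean log2 CPM of 10 fibroblast marker genes of all 12 mice, 5.396, where the other WT BLM mice had 7.19 and 6.52 and the WT PBS mice 6.48 to 6.76, and the part of this difference in the result was not tested. At 3.33 CPM it also had the lowest Itga8 value of the 6 WT mice.

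Itga2 (chromosome 13, 114833081 to 114932100, minus strand), known as a collagen receptor subunit of platelets and epithelial cells, was at 12.5, 10.4 and 14.3 CPM in WT PBS and at 22.4, 16.0 and 16.0 CPM in WT BLM mice. The groups did not overlap, and the log2 fold change was 0.55 (95% confidence interval -0.03 to 1.13, adjusted p = 0.121). Itga2 passed without KO PBS mouse 136 (adjusted p = 0.0256) and without both KO mice with a high growing-hair list (adjusted p = 0.0273). Its neighbor on chromosome 13, Itga1 (114953096 to 115101964, minus strand), binds collagen IV among other collagens. It was at 30.6, 30.1 and 36.8 CPM in WT PBS and at 25.3, 51.9 and 32.2 CPM in WT BLM mice, with a log2 fold change of 0.17 (95% confidence interval -0.33 to 0.66, adjusted p = 0.581). Itga10 (chromosome 3, 96645584 to 96664519, plus strand), a receptor subunit known from cartilage, lay between 2.27 and 5.30 CPM in the 6 WT mice and had a log2 fold change of 0.19 (95% confidence interval -0.52 to 0.90, adjusted p = 0.664). A same-strand gene model, Gm42957, covers 33.5% of the Itga10 exon bases, so its reads are uncertain. Smaller overlaps were annotated for Itga1 (3.68% with Gm49395), Itga8 (5.05% with an antisense RNA) and Itgb4 (7.66% with a noncoding RNA on the other strand), and the sources used here do not say whether counting used strand.

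**Figure D2:**
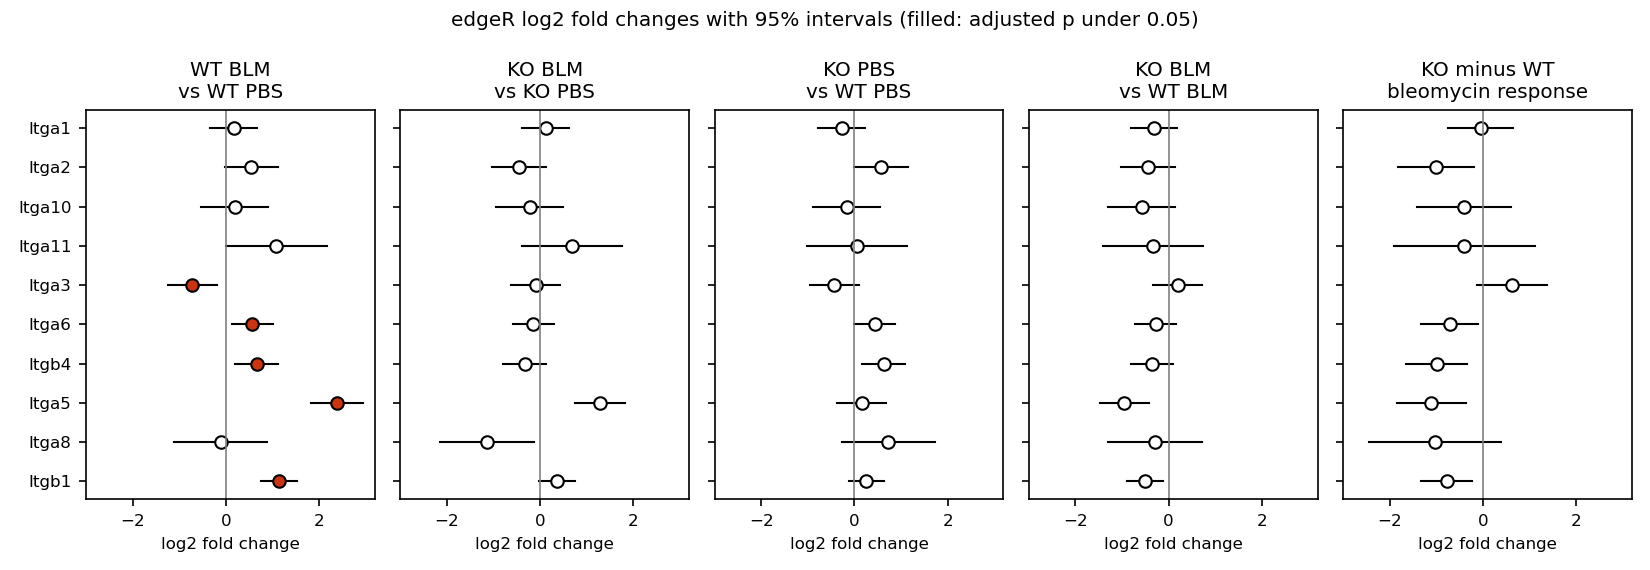
edgeR log2 fold changes (x axis) of the 10 subunits (y axis) with 95% confidence intervals in the 4 comparisons between groups and for the KO minus WT bleomycin response; filled points have an adjusted p under 0.05. Filled points appear only in WT BLM against WT PBS, for Itga3, Itga6, Itgb4, Itga5 and Itgb1.

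In Thy-1–KO mice the same comparison gave no call by edgeR, but Itga5 and Itgb1 were higher in all KO BLM than in all KO PBS mice. For KO BLM against KO PBS 0 of the 10 members had an adjusted p under 0.05, where 0.306% of all genes did, and 2 members had an unadjusted p under 0.05, where 20% of all genes had. DESeq2 called 1 member, Itga5, and 6.14% of all genes. Itga5 was at 22.9, 39.1 and 38.0 CPM in KO PBS mice 136, 137 and 139 and at 60.3, 74.4 and 109 CPM in KO BLM mice 141, 143 and 144. The lowest KO BLM value was thus above the highest KO PBS value, with a log2 fold change of 1.28 (SE 0.241, 95% confidence interval 0.75 to 1.81, adjusted p = 0.0553, and 0.000298 in DESeq2). Without KO PBS mouse 136 the adjusted p of Itga5 was 0.0178, and without KO BLM mouse 141 it was 0.0214. No other fit with 1 mouse left out called Itga5. Over all fits with 1 mouse left out, its log2 fold change ran from 1.01 to 1.45 and its adjusted p from 0.0178 to 0.203. The highest adjusted p of Itga5 over all alternatives was 0.332. Leaving out mouse 136 also brought Itga2 past the threshold, with a log2 fold change of -0.71 (adjusted p = 0.0363), in a fit that called 14% of all genes. Itgb1 was at 219, 313 and 319 CPM in KO PBS and at 331, 359.8 and 399 CPM in KO BLM mice, with a log2 fold change of 0.36 (95% confidence interval -0.03 to 0.74, adjusted p = 0.276).

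Itga8 was at 10.7, 14.7 and 14.9 CPM in KO PBS and at 8.39, 6.88 and 3.04 CPM in KO BLM mice. It was the 1 member with KO BLM values below all KO PBS values, and its log2 fold change was -1.13 (95% confidence interval -2.15 to -0.12, adjusted p = 0.208). Groups that do not overlap were thus found for 3 of 10 members, 2 higher and 1 lower, against 19.3% of all genes (10.8% higher and 8.44% lower). For the hemidesmosome pair the KO BLM estimates were the lower ones, and the groups overlapped. Itgb4 was at 195, 268 and 303 CPM in KO PBS and at 186, 203 and 219.8 CPM in KO BLM mice (log2 fold change -0.33, 95% confidence interval -0.79 to 0.13, adjusted p = 0.381). Itga6 was at 151, 238 and 229.8 CPM in KO PBS and at 182, 179 and 199 CPM in KO BLM mice (log2 fold change -0.15, 95% confidence interval -0.58 to 0.29, adjusted p = 0.698).

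Itga3 was at 126, 86.7 and 78.8 CPM in KO PBS and at 101, 87.7 and 84.9 CPM in KO BLM mice, and the groups overlapped (log2 fold change -0.10, adjusted p = 0.849). Among the collagen receptors, Itga11 was at 16.2, 15.3 and 26.9 CPM in KO PBS and at 16.5, 38.8 and 38.5 CPM in KO BLM mice, where mouse 141 was within the KO PBS range and the other 2 above it (log2 fold change 0.68, 95% confidence interval -0.39 to 1.76, adjusted p = 0.443). Itga2 was at 10.97, 21.3 and 22.7 CPM in KO PBS and at 14.2, 13.9 and 12.1 CPM in KO BLM mice (log2 fold change -0.45, adjusted p = 0.351). KO PBS mouse 136 was below and the other 2 were above all KO BLM mice. Itga1 lay between 26.02 and 33.2 CPM and Itga10 between 2.48 and 4.55 CPM in the 6 KO mice, with log2 fold changes of 0.12 (adjusted p = 0.789) and -0.22 (adjusted p = 0.720).

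The bleomycin responses of KO and WT mice were compared in a single contrast, the KO change minus the WT change. For 9 of the 10 members the KO response was the lower one, and 0 passed the threshold, as did 0% of all genes (smallest adjusted p over all genes 0.0604). The share of all genes with a lower estimate was not computed. The median difference was -0.74 for the members and -0.05 for all genes. Of these 9 members, Itga1 and Itga11 changed sign in fits with 1 mouse left out. At an unadjusted p under 0.05 there were 5 members (Itgb4, Itga5, Itgb1, Itga2 and Itga6), where 31.1% of all genes had such a p, and DESeq2 called 3 members (Itgb4, Itga5 and Itgb1) and 16.7% of all genes. The difference was -0.99 for Itgb4 (95% confidence interval -1.64 to -0.34, adjusted p = 0.0801), -1.10 for Itga5 (95% confidence interval -1.85 to -0.36, adjusted p = 0.0843) and -0.78 for Itgb1 (95% confidence interval -1.32 to -0.23, adjusted p = 0.0885). Itga2 followed with -0.997 (adjusted p = 0.112) and Itga6 with -0.71 (adjusted p = 0.122). The difference of the Itga3 responses went the other way, 0.62 (95% confidence interval -0.12 to 1.37, adjusted p = 0.221). The remaining differences were -1.02 for Itga8, -0.41 for Itga10, -0.40 for Itga11 and -0.05 for Itga1, with adjusted p from 0.283 to 0.930. Without KO PBS mouse 136, 6 members passed (Itga2, Itga3, Itga5, Itga6, Itgb1 and Itgb4), and so did 39.9% of all genes. The KO PBS mice left in that fit had a low growing-hair list and the WT PBS mice a high one, so the 2 PBS groups differed in it.

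**Figure D3:**
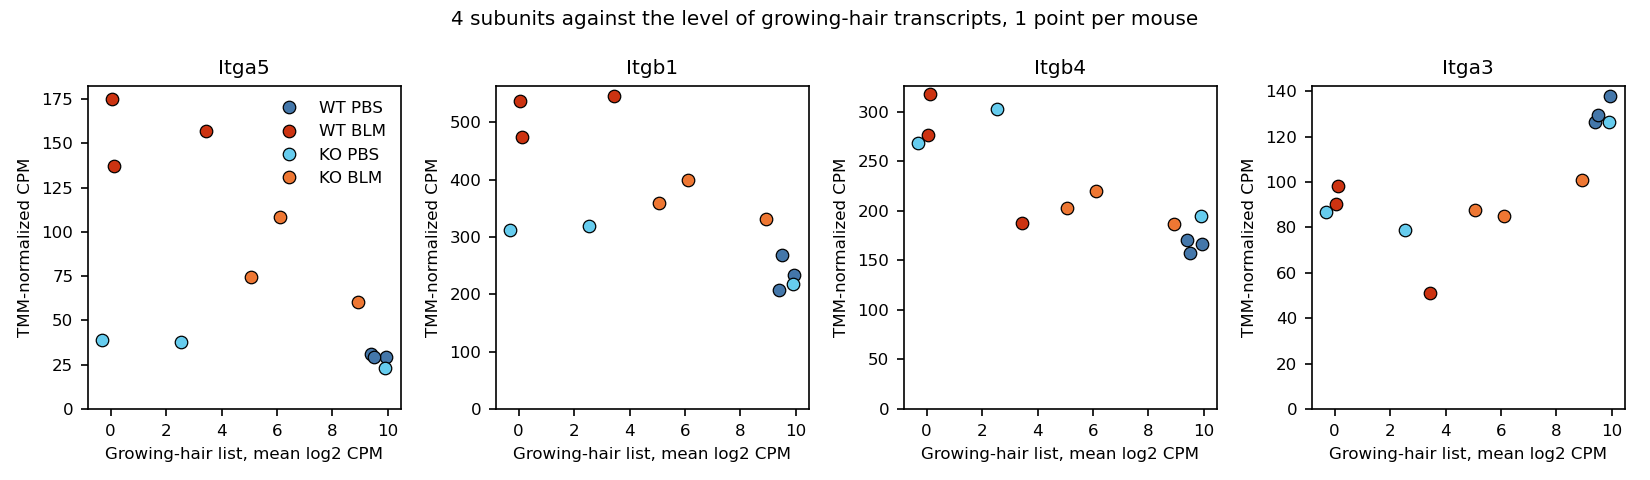
Expression of Itga5, Itgb1, Itgb4 and Itga3 (TMM-normalized CPM, y axes from 0) against the mean log2 CPM of the 22 growing-hair genes (x axis), with 1 point per mouse colored by group. The 5 mice at the right have 8.92 or more on the x axis, and 1 of them, KO BLM mouse 141, was given bleomycin; Itga3 is at 126 to 138 CPM in the other 4 and at most 101 CPM in every other mouse.

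The members were also read beside the growing-hair list within the KO groups, each of which held 1 mouse with a high list. KO PBS mouse 136 had 22.9 CPM of Itga5, below the 38.0 and 39.1 CPM of mice 139 and 137. It was also the lowest KO PBS mouse for Itgb1 and Itgb4 and the highest for Itga3. KO BLM mouse 141 had the lowest Itga5 (60.3 CPM), Itgb1 (331 CPM) and Itgb4 (186 CPM) and the highest Itga3 (101 CPM) of the KO BLM mice. In both KO groups the mouse with the highest growing-hair list thus lay at the end of the range for these 4 genes. This was the side where the WT PBS mice lay. Itga6, Itga2, Itga8, Itga1 and Itga11 did not follow in both groups. For Itga6, mouse 136 was lowest at 151 CPM, but mouse 141, at 182 CPM, lay between 179 and 199 CPM. For Itga2, mouse 136 was lowest at 10.97 CPM and mouse 141 highest at 14.2 CPM. The share of all genes with such a pattern was not computed. With the list as a covariate, the log2 fold change of Itga5 was 1.51 in KO BLM against KO PBS (adjusted p = 0.00419), and 1 member and 9.22% of all genes were called. With 1 such mouse in each KO group and none among the WT BLM mice, the part of hair state in these values was not tested.

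In mice without bleomycin the loss of Thy-1 gave 0 calls among the members by edgeR and by DESeq2. For KO PBS against WT PBS 0.0655% of all genes were called by edgeR and 4.32% by DESeq2, and 1 member, Itgb4, had an unadjusted p under 0.05, where 20.4% of all genes had. Itgb4 and Itga8 were higher and Itga1 was lower in all KO PBS than in all WT PBS mice, 3 of 10 members against 18.9% of all genes (8.62% higher and 10.3% lower). The log2 fold change was 0.63 for Itgb4 (95% confidence interval 0.17 to 1.09, adjusted p = 0.205), 0.73 for Itga8 (95% confidence interval -0.27 to 1.73, adjusted p = 0.346) and -0.27 for Itga1 (95% confidence interval -0.77 to 0.23, adjusted p = 0.466). For the other 7 members the log2 fold changes were 0.56 for Itga2, 0.43 for Itga6, -0.43 for Itga3, 0.26 for Itgb1, 0.15 for Itga5, 0.07 for Itga11 and -0.17 for Itga10. Without KO PBS mouse 136, the KO PBS mouse with a high growing-hair list, 5 members passed, Itga2, Itga6, Itgb1 and Itgb4 higher and Itga3 lower, in a fit that called 36.7% of all genes. The KO PBS mice left, 137 and 139, had a mean log2 CPM of -0.31 and 2.54 over this list, and the WT PBS mice 9.40 to 9.95. In that fit genotype and the level of the list cannot be told apart.

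Under bleomycin, 9 of the 10 members had lower estimates in KO BLM than in WT BLM mice. By edgeR 0 passed the threshold, where 0.0928% of all genes did. The share of all genes with a lower estimate was not computed. The median log2 fold change was -0.35 for the members and -0.03 for all genes. Of these 9 members, Itga1, Itga8 and Itga11 changed sign in fits with 1 mouse left out. At an unadjusted p under 0.05 there were 2 members, Itga5 and Itgb1, where 16.6% of all genes had such a p, and DESeq2 called 1, Itga5, and 3.69% of all genes. Itga5, at 60.3 to 109 CPM in KO BLM and 137 to 175 in WT BLM mice, had a log2 fold change of -0.95 (95% confidence interval -1.48 to -0.42, adjusted p = 0.206, and 0.0213 in DESeq2). Itgb1, at 331 to 399 against 475 to 546 CPM, had one of -0.52 (95% confidence interval -0.90 to -0.13, adjusted p = 0.250). Itga2 (log2 fold change -0.43) and Itga10 (-0.58) were also lower in all KO BLM than in all WT BLM mice, so that 4 of 10 members did not overlap, all 4 of them lower, against 27.5% of all genes (14.6% higher and 12.9% lower). The other 6 members overlapped, with log2 fold changes from -0.36 for Itgb4 to 0.19 for Itga3. Without KO PBS mouse 136, which is in neither group but in the shared model, 2 members passed, Itga5 (adjusted p = 0.0280) and Itgb1 (adjusted p = 0.0480), and 6.89% of all genes. In a fit of only the KO BLM and WT BLM mice, 0 members and 0.0346% of all genes passed.

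Itga11 made up the largest share of the collagen receptor α subunits in every group mean. Counted per length, it held 45.8% ± 5.14 (SD, n = 3) of the sum of Itga1, Itga2, Itga10 and Itga11 with PBS and 54.7% ± 18.6 with bleomycin in WT mice. In KO mice it held 44.2% ± 6.72 and 58.2% ± 14.3. Its share was 66.05% and 64.7% in WT BLM mice 146 and 147 and 66.4% and 66.5% in KO BLM mice 143 and 144, but 33.3% in WT BLM mouse 145 and 41.6% in KO BLM mouse 141. In mouse 145 Itga2 held more, 38.8%. Itga1 held 22.3% ± 2.92 in WT PBS and 15.2% ± 2.01 in WT BLM mice, without overlap. Its share was 17.5% ± 3.57 and 16.3% ± 5.89 in the KO groups with PBS and bleomycin. Itga2 held 19.3% to 29.8% and Itga10 6.17% to 9.75% in the group means. The ratio of Itga11 to Itga1 counts was 0.569 with PBS and 0.955 with bleomycin in WT mice and 0.700 and 0.9996 in KO mice. That of Itga2 to Itga1 was 0.379, 0.513, 0.647 and 0.460 in the same order, with overlapping ranges in all comparisons.

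**Figure D4:**
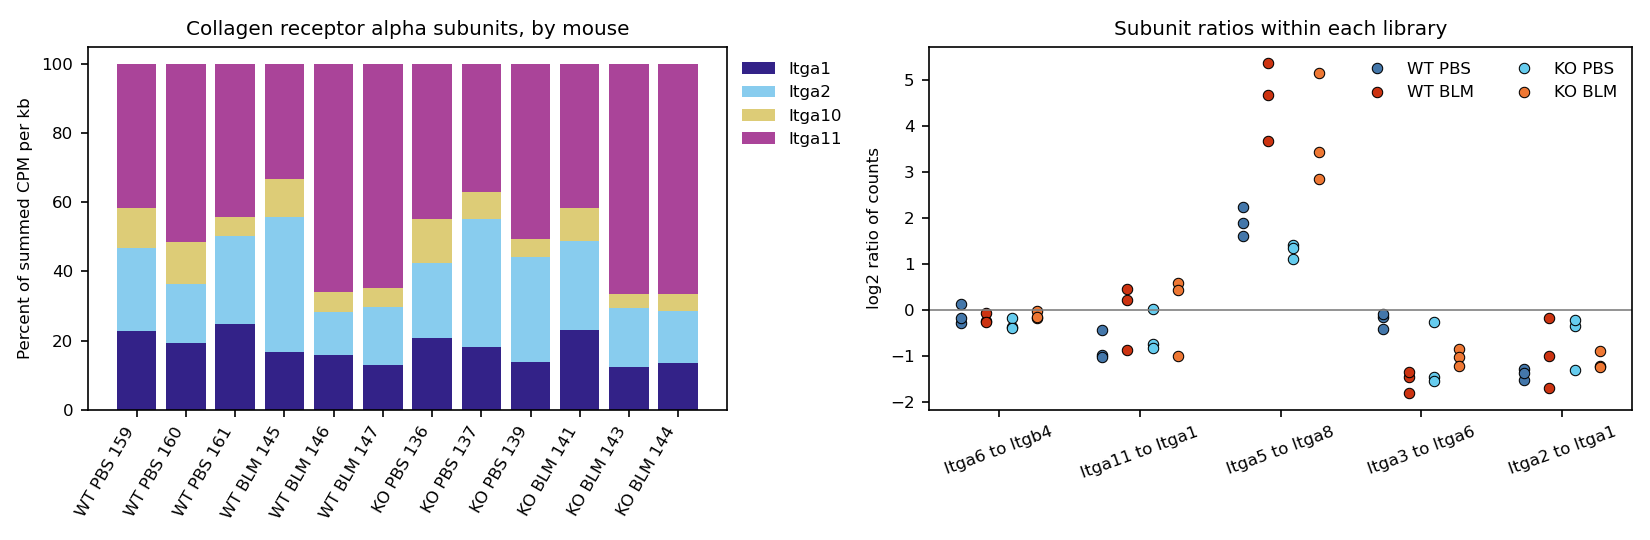
Left, percent of the summed CPM per kb of the 4 collagen receptor α subunits in each mouse (stacked bars from 0 to 100); right, log2 ratios of counts of subunit pairs within each library, 1 point per mouse colored by group. Itga11 takes between 64.7% and 66.5% of the bar in 4 of the 6 bleomycin mice, and the Itga5 to Itga8 points of both BLM groups lie above those of both PBS groups.

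The ligands of these receptors were counted beside them, with log2 fold changes in parentheses. Of all genes tested, 19.8% were called higher and 14.1% lower in WT BLM against WT PBS. Of 10 interstitial ligands, 9 rose and 0 fell in WT BLM mice, led by Spp1 (osteopontin; log2 fold change 5.10, adjusted p = 0.00497), Fn1 (fibronectin; 2.75, adjusted p = 0.00329) and Col5a1 (a fibrillar collagen; 2.67, adjusted p = 0.00626), while Vtn (vitronectin; 0.90, adjusted p = 0.152) did not pass. Fn1, the ligand of Itga5, was at 339 ± 76.5 CPM with PBS and 2282 ± 619.6 CPM with bleomycin in WT mice (SD, n = 3). In KO mice it was at 486 ± 200.4 and 837 ± 145 CPM. Of 20 basement membrane genes, 5 rose and 3 fell in WT BLM mice. Lama4 (a laminin chain of vessels; 1.216, adjusted p = 0.0271) was among those that rose, Lamc3 (-1.99, adjusted p = 0.00714) and Col4a4 (-1.76, adjusted p = 0.0135) fell, and Col4a1 (0.03) and Col4a2 (0.02), the main collagen IV chains, did not pass. Lama3 (0.50, adjusted p = 0.0384) and Lamb3 (1.13, adjusted p = 0.0281), which encode chains of laminin-332, the ligand of α6β4, rose. These 2 genes and Itga7 below were chosen after their values were seen. In the hemidesmosome list 3 of 7 genes rose, Col7a1 (2.19, adjusted p = 0.0151), Dst (1.25, adjusted p = 0.0250) and Plec (0.77, adjusted p = 0.0250), and the basal keratins Krt5 (0.26) and Krt14 (0.94) did not pass.

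Among 30 genes of the adhesion complex inside the cell, 13 rose and 2 fell in WT BLM mice, beside 19.8% and 14.1% of all genes. The largest changes were in Parvb (a parvin; 1.54, adjusted p = 0.00329), Fermt3 (the kindlin of blood cells; 1.44, adjusted p = 0.00599) and Tgfb1i1 (Hic-5, a paxillin relative; 1.04, adjusted p = 0.0114). The abundant genes Flna (filamin A; 0.33, adjusted p = 0.104) and Actn1 (α-actinin; -0.39, adjusted p = 0.273) did not pass. Of the other 17 integrin subunits, 15 were tested, of which 11 rose and 0 fell. The largest were subunits of leukocyte integrins, Itgax (3.49, adjusted p = 0.00415), Itgb2 (2.92, adjusted p = 0.00661) and Itga4 (2.42, adjusted p = 0.00955), and Itgb3 (0.77, adjusted p = 0.0637) and Itgb6 (0.19, adjusted p = 0.436) did not pass. Itga7, a laminin receptor subunit of muscle, rose by 2.39 (adjusted p = 0.00215). The median log2 fold change was 1.31 for these 15 subunits, 2.23 for the interstitial ligands, 0.41 for the basement membrane genes and 0.35 for the adhesion complex, beside 0.02 for all genes. In KO BLM against KO PBS edgeR called 0 genes of any of these 5 lists and 0.306% of all genes. At an unadjusted p under 0.05, where 20% of all genes lay, there were 4 of 15 other subunits and 5 of 10 interstitial ligands. There were also 7 of 20 basement membrane genes, 5 of 30 adhesion genes and 1 of 7 hemidesmosome genes. In the same order DESeq2 called 2, 2, 3, 1 and 0, and 6.14% of all genes. With the growing-hair list as a covariate, the KO counts were 7, 3, 3, 0 and 1, in a fit that called 9.22% of all genes. In WT mice 0 genes of these lists passed with the covariate, where 0.071% of all genes did. Without both KO mice with a high growing-hair list the KO counts were 2, 3, 6, 3 and 2, in a fit that called 22.3% of all genes.

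Markers of several cell types moved with the WT comparison, in which 19.8% of all genes were called higher and 14.1% lower. In WT BLM mice 8 of 10 macrophage markers rose, with a mean log2 CPM of the list of 6.91 to 7.67 against 4.96 to 6.21 in WT PBS mice, as did 9 of 10 skeletal muscle genes (10.2 to 11.2 against 8.41 to 8.78) and 5 of 8 endothelial genes (4.43 to 5.90 against 4.36 to 4.52). In the fibroblast list 2 of 10 rose and 2 fell (5.396 to 7.19 against 6.48 to 6.76), in the basal keratinocyte list 1 of 7 rose (9.55 to 10.6 against 9.72 to 9.93), and 12 of 22 growing-hair genes fell. Of 4 stress keratins 2 rose and 1 fell, of 8 smooth muscle and pericyte genes 2 rose, and of 4 cartilage genes tested 1 rose and 2 fell. In KO BLM against KO PBS, where 0.306% of all genes were called, the 1 marker called was Tagln, a smooth muscle gene (log2 fold change 0.86, adjusted p = 0.0341). The count of its list ran from 0 to 3 over the alternatives. Without both KO mice with a high growing-hair list, 12 growing-hair genes and 3 stress keratins were called in KO mice, and with the covariate 4 macrophage markers were. Of all genes, 22.3% were called in the first and 9.22% in the second of these fits. The KO mice left in the first of these fits still differed in the growing-hair list. Its mean log2 CPM was 5.06 and 6.10 in KO BLM mice 143 and 144, and -0.31 and 2.54 in KO PBS mice 137 and 139. The part of these markers in the changes of the integrin subunits was not tested.

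The genes most like each member across the 12 mice were ranked by Pearson's r of log2 CPM among 11251 genes, as a description over mice that share groups, treatment and hair state. Itga5 was most like Loxl3 (a lysyl oxidase; r = 0.993), Adamts7 (a matrix protease; 0.987) and Ilk (the integrin-linked kinase; 0.984). For Itgb1 these were Cd14 (0.986), Mmp19 (0.983) and Tnfrsf1b (0.983), and Itgb1 and Itga5 had an r of 0.96 with each other. Itgb4 was most like P3h2 (0.968), Col17a1 (the transmembrane collagen of hemidesmosomes; 0.966) and Ahnak2 (0.960), and Itga6 most like Lama3 (the α chain of laminin-332; 0.977), Sgms1 (0.961) and Ttc39b (0.961). The r between Itga6 and Itgb4 was 0.91 and that between Itga2 and Itga6 0.87. Closest to Itga3 were Crybg2 (0.980), Casc3 (0.974) and Llgl2 (0.972), and its r with Itgb1 was -0.77.

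Itga8 was most like Enpp5 (0.974) and 2 genes of fat cells, Lipe (hormone-sensitive lipase; 0.963) and Plin1 (perilipin; 0.949). Closest to Itga11 were Ccn3 (0.934), Vstm4 (0.930) and Cercam (0.926), to Itga1 Col4a2 (a collagen IV chain; 0.894), B3glct (0.887) and Lrrc8c (0.881), and to Itga2 Ikzf2 (0.951), Nek7 (0.941) and Nfatc1 (0.934). Itga10, the member with the fewest counts per length, had the weakest likeness, with Rad52 (0.840), Mgrn1 (0.829) and Sugp2 (0.825).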

How the data were processed

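Skin RNA of 12 mice was analysed. Per the study's methods, the authors made stranded TruSeq mRNA libraries, sequenced them on a NextSeq and tested with DESeq2. The deposited values are whole-number read counts per gene symbol, without normalization. The submitters' processing notes name GRCm38.p6 and MultiQC 1.7, and the aligner, counting tool and use of strand are not given in the sources used here.

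From the counts, filterByExpr kept 18311 of the 34689 genes with a count (minimum count 10, total 15). Counts were scaled by TMM and fitted in edgeR 4.0.16 (R 4.3.3) with 4 group means. 5 contrasts were tested by quasi-likelihood F tests, with Benjamini-Hochberg adjustment over all genes tested and a threshold of 0.05. SE is the absolute log2 fold change over the root of F. The biological coefficient of variation was 34.9%. Per-mouse values are CPM, with a prior count of 2 for log2 values. Library totals had a median of 31494965 counts, and the member with the fewest counts, Itga10, lay above 2 CPM in every mouse. Positions and exon lengths are from GENCODE M21 (GRCm38), promoters from RefSeq. Subunit ratios were compared by exact permutation tests (scipy 1.17.1).

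Named genes were the 10 members, Thy1, from each list the 3 called genes with the largest change and the 2 most abundant not called, and the 3 genes most like each member. For the cell type lists the text gives counts and levels in place of these genes, except Tagln, which was named after its value was seen. The members and lists were chosen with earlier results of these data known. Alternatives were DESeq2 1.42.0, other normalizations and filters, 2 groups at a time and each mouse left out. Added later were both KO mice with a high growing-hair list left out, the hair list as a covariate and the longest transcript as length. The model fit was tested on simulated data.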

Additional observations from a re-analysis of the deposited data

How the results depend on the processing

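No paired analysis was possible because every mouse has its own number and no number is shared between groups. Of 990 values of member log2 fold changes under the alternatives, 891 kept their direction and their side of the threshold, 29 lost a call, 39 gained one and 31 changed sign; the cause was not tested. In WT BLM against WT PBS the number of members called was 5, and it was 3 without a filter on low counts, 0 with the growing-hair covariate and 2 to 6 with 1 mouse left out. In KO BLM against KO PBS it was 0, and 1 with DESeq2, without a filter and with the growing-hair covariate. It was 2 without both KO mice with a high growing-hair list and 0 to 2 with 1 mouse left out. In KO PBS against WT PBS it was 0, and 5 without both KO mice with a high growing-hair list and 0 to 5 with 1 mouse left out. In KO BLM against WT BLM it was 0, and 1 with DESeq2 and without both KO mice and 0 to 2 with 1 mouse left out. For the difference of the responses it was 0, and 3 with DESeq2, 5 without both KO mice and 0 to 6 with 1 mouse left out. In the last 4 comparisons the highest of these counts was reached without KO PBS mouse 136. These fits also called more of all genes, 6.89% to 39.9% without mouse 136 and 4.36% to 40.9% without both KO mice. In both kinds of fit the KO PBS mice left had a low growing-hair list and the WT PBS mice a high one. With the growing-hair covariate, log2 fold changes that turned were those of Itga2 (-0.18), Itga6 (-0.019) and Itga8 (0.11) in WT BLM against WT PBS, Itga6 (0.067) in KO BLM against KO PBS, Itga5 (-0.31), Itga10 (0.22) and Itgb1 (-0.0046) in KO PBS against WT PBS, Itga2 (0.057), Itga3 (-0.0031), Itga6 (0.11) and Itgb4 (0.027) in KO BLM against WT BLM, and Itga2 (0.034) and Itga6 (0.086) in the difference of the responses. Without both KO mice with a high growing-hair list, Itga3 turned to 0.059 in KO BLM against KO PBS. With 1 mouse left out, values spanned both signs in WT BLM against WT PBS for Itga1 (-0.18 to 0.37), Itga8 (-0.67 to 0.24) and Itga10 (-0.10 to 0.37), in KO BLM against KO PBS for Itga3 (-0.23 to 0.14), in KO PBS against WT PBS for Itga10 (-0.42 to 0.080) and Itga11 (-0.24 to 0.21), in KO BLM against WT BLM for Itga1 (-0.52 to 0.024), Itga3 (-0.048 to 0.37), Itga8 (-0.64 to 0.27) and Itga11 (-0.74 to 0.10), and in the difference of the responses for Itga1 (-0.25 to 0.29) and Itga11 (-0.80 to 0.033). None of these members passed the threshold before the change except Itga6 in WT mice. With the longest coding transcript as length, the share of Itga1 among the collagen receptors was 32.1% and 22.8% in WT mice with PBS and bleomycin and 26.005% and 24.2% in KO mice, and that of Itga11 was 40.4% in WT PBS mice. The other shares and the ratios moved by less than the spread between mice.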
